A study of Mus musculus with 8 samples.

Results

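Notch signalling passes between neighbouring cells, and its ligands, receptors and target genes are described here in mouse skin tumour cells in which the nuclear receptor NR2F2 (COUP-TFII) was gained or lost. The 10 genes considered were the receptors Notch1, Notch2 and Notch3, the ligands Jag1, Jag2 and Dll1, and the targets Hes1, Hey1, Heyl and Nrarp. They were taken as every probe set that the platform annotation assigns to one of them alone. This gave 15 probe sets for 9 genes, of 45141 probe sets and 17097 genes with a single-gene probe set in the whole table. The expression of Jag2 was not analysed here, and the gene enters only the search of promoters below.

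The RNA came from Epcam-positive cells that flow cytometry had sorted from mouse skin tumours, 8 arrays in 4 groups of 2. They were NR2F2-overexpressing (gain of function, GOF) papilloma with NR2F2 WT papilloma as its control, and NR2F2 KO carcinoma (K5CreER;NR2F2fl/fl, labelled LOF) with NR2F2 WT carcinoma without Cre as its control. In the KO the CreER recombinase is driven by the keratin 5 promoter, and CreER cuts the floxed alleles once tamoxifen is given. The driver of NR2F2 overexpression, the age of the mice and the number of mice behind each group are not given in the sources used here, so every error and p-value measures only the spread between these arrays. The 2 arrays of each group differed in the sex-linked transcripts Xist and Eif2s3y. The comparisons ask whether Notch genes differ with NR2F2 in papilloma and without it in carcinoma.

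A Notch receptor is held at the cell surface until a Jagged or Delta-like ligand on a neighbouring cell binds it. The ligand is pulled into its own cell by ubiquitin-dependent endocytosis, and the receptor is then cut by ADAM proteases and gamma-secretase. The freed intracellular part enters the nucleus, joins RBPJ and Mastermind-like proteins and switches on genes of the Hes and Hey families and Nrarp. In epidermis this pathway is known for moving basal keratinocytes into the differentiating spinous layer, and in vessels for shaping endothelial and mural cells.

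Values are RMA log2 expression as deposited, and a difference of 1 is a 2-fold step. Background was set for each array at the brightest of 44 control probe sets that target bacterial or artificial sequences, 3.09 to 3.33 in papilloma and 4.95 to 5.01 in carcinoma. The medians of the papilloma arrays (3.12 to 3.16) and carcinoma arrays (5.08 to 5.15) differ in scale, so no level was compared between tumour types. Nr2f2 followed the labels. On the probe set that stands for the gene it stood at 11.43 and 11.47 in GOF papilloma against 2.80 and 2.55 in its controls, and at 4.77 and 4.996 in KO carcinoma against 7.93 and 8.14 in its controls. Both differences passed the threshold, a limma adjusted p under 0.05 (5.31e-06 and 0.00475). Of its other 3 probe sets, 1 differed by 0.96 in papilloma (limma adjusted p over probe sets = 0.351) and by -3.07 in carcinoma (0.0972), and 2 were below background on all papilloma arrays. With the mean of its probe sets the papilloma difference was 3.33, against 8.78 on the brightest. The loss in carcinoma no longer passed when 1 GOF array (adjusted p = 0.0658 without either) or KO replicate 1 (0.0792) or 2 (0.0596) was left out, with the mean of its probe sets (0.0745) or with the carcinoma arrays alone (0.351). Control carcinoma replicate 2 stood apart in that it alone held both Xist (6.51), made from an inactive X chromosome, and Eif2s3y (7.45), a gene of the Y chromosome, while on each other array 1 of them was near or below background. Epcam lay at 9.004 and 8.68 in GOF papilloma against 10.17 and 10.57 in control papilloma, a fall of 1.53 (SE 0.22, limma adjusted p = 0.0372). The keratin gene Krt5 lay between 12.35 and 12.75 on all 8 arrays.

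No Notch gene passed the threshold. In GOF papilloma 0 of 9 genes did, where 1.21% of the 13939 genes tested passed, and in KO carcinoma 0 of 9, where 0.0143% passed. At an unadjusted limma p under 0.05 there were 2 genes in GOF papilloma, Jag1 lower and Notch2 higher (16.4% of all genes), and 1 in KO carcinoma, Dll1 higher (13.8% of all genes). The adjusted p-values of the 9 genes ran from 0.155 to 0.969 in papilloma and from 0.150 to 0.980 in carcinoma. The groups did not overlap for 3 genes with lower values in GOF papilloma (21.3% of all genes) and 3 with higher values (27.3%). One of the 3 higher was Heyl, which was above background on 1 of the 8 arrays alone, so that its place in this count carries little information. In KO carcinoma the groups did not overlap for 2 genes with lower values (19.1%) and 1 with higher values (23.8%). For the GOF effect minus the KO effect 0 of 9 passed (0.0789% of all genes), and 2, Dll1 and Notch2, had an unadjusted p under 0.05 (14.2% of all genes). Tested probe set by probe set, 0 of 13 passed in GOF papilloma (0.583% of 32394 probe sets) and 0 of 13 in KO carcinoma (0.00926%). The shares of the 9 genes lie near those of all genes, and what follows describes single genes.

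**Figure D1:**
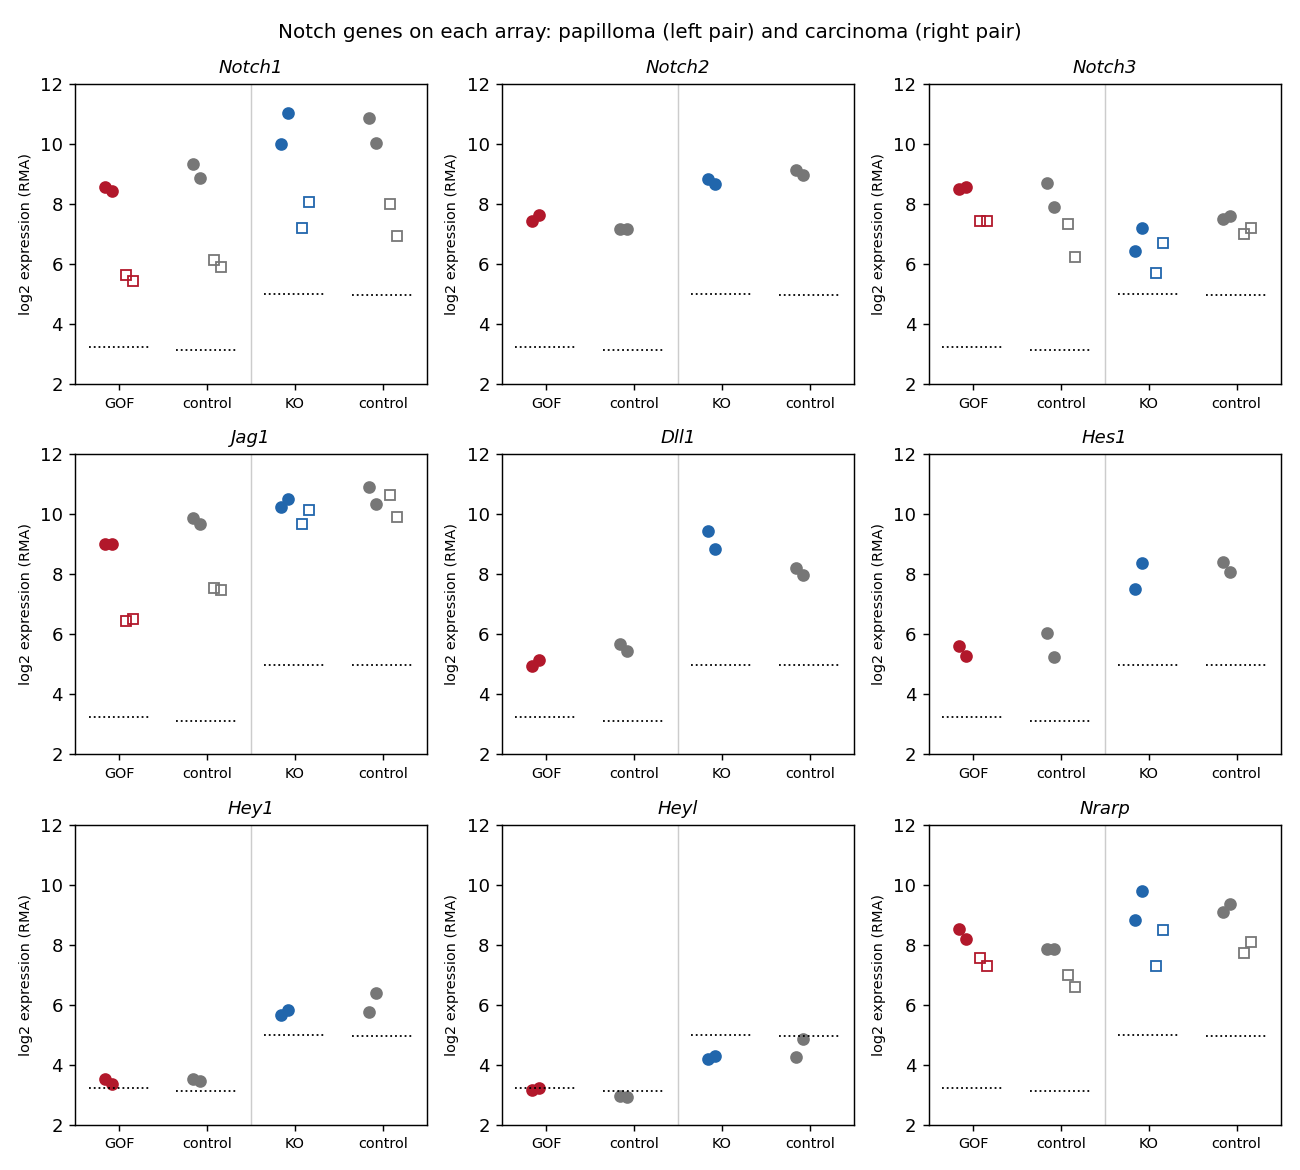
Log2 expression of 9 Notch genes on each of the 8 arrays (1 point per array; GOF red, KO blue, controls grey). Filled circles are the probe set that stands for the gene, open squares a further probe set, and dotted lines the mean background of a group. Jag1 and Dll1 lie lower in GOF than in control papilloma without overlap, Dll1 lies higher in KO than in control carcinoma, and Heyl lies near or under background throughout.

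The ligands Jag1 and Dll1 had the lowest p-values among the 9 genes, Jag1 in papilloma and Dll1 in carcinoma. The sequences of the 250 bases before their annotated starts are shown because NR2F receptors bind the half-site AGGTCA, which was searched on both strands (as AGGTCA or TGACCT) and is in capitals. They are from RefSeq on build GRCm38.p6, 5′ to 3′ on the strand of the gene. Neurl1b, whose product acts on Notch ligands and which is described further on, is shown with them. Dll1 has 2 annotated starts on the minus strand, at chr17:15375824-15376073 and chr17:15376933-15377182. The Jag1 promoter lies on the minus strand at chr2:137116521-137116770, and that of Neurl1b on the plus strand at chr17:26414609-26414858.
Dll1, start 1: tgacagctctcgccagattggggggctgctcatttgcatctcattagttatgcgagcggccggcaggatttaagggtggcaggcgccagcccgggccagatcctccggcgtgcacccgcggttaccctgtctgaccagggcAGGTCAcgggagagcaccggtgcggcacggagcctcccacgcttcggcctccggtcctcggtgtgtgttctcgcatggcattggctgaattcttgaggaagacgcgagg
Dll1, start 2: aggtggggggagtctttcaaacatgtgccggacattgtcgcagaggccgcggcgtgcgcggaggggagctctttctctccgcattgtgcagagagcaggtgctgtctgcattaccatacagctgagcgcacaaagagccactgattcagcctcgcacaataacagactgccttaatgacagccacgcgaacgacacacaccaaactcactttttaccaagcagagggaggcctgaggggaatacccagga
Jag1: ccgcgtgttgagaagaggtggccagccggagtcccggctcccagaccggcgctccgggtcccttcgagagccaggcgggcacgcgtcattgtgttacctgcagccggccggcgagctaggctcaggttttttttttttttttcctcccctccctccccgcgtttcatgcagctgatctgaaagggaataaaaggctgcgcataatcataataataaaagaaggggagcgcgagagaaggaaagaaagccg
Neurl1b: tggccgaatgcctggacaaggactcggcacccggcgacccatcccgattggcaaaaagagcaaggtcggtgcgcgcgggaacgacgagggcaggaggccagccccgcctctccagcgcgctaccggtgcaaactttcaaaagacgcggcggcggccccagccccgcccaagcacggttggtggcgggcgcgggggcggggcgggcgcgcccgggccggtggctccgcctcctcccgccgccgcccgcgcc

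Of 8 promoters found for 7 of the 10 Notch genes, 1 held the half-site. It lies in the first Dll1 promoter shown, from 109 to 104 bases before the start. Among all 32851 annotated promoters, 14.0% held it in the same window. The core TGGGAA of the RBPJ motif (or TTCCCA on the other strand) was in 0 of the 8 and in 21.6% of all promoters. No promoter of Hes1, Hey1 or Heyl was found, so Nrarp was the only target gene searched for either motif. The matches are of letters alone and carry no information on binding.

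Jag1, a Jagged-type ligand, lay lower in GOF papilloma on both of its probe sets. The probe set that stands for the gene (1421105_PM_at) read 9.01 and 9.01 in GOF papilloma against 9.86 and 9.66 in control papilloma. The other (1421106_PM_at) read 6.45 and 6.52 in GOF papilloma against 7.54 and 7.46 in the controls. All 4 GOF readings were below the control readings of their probe set. The log2 differences were -0.75 (SE 0.21, 95% interval -1.25 to -0.24, limma adjusted p = 0.155) and -1.02 (SE 0.27, 95% interval -1.65 to -0.38, limma adjusted p over probe sets = 0.157), that is, 1.68-fold and 2.02-fold lower. Neither passed, and over the alternatives tried the first ran from -0.88 to -0.65 with adjusted p-values from 0.0812 to 0.489.

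In carcinoma Jag1 read 10.25 and 10.50 in the KO against 10.92 and 10.35 in the controls. The groups overlapped, with a log2 difference of -0.26 (SE 0.21, 95% interval -0.77 to 0.25, limma adjusted p = 0.683). Its other probe set overlapped too, with 9.66 and 10.15 in the KO against 10.64 and 9.90 in the controls. Without control carcinoma replicate 1 the difference was 0.03.

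Dll1, a Delta-like ligand measured by 1 probe set (1419204_PM_at), lay on opposite sides of its controls in the comparisons. It read 4.94 and 5.15 in GOF papilloma against 5.66 and 5.46 in control papilloma. In carcinoma it read 9.44 and 8.84 in the KO against 8.22 and 7.96 in the controls. Neither pair of groups overlapped. The log2 difference was -0.52 (SE 0.23, 95% interval -1.06 to 0.03, limma adjusted p = 0.325) with NR2F2 overexpressed and 1.05 (SE 0.23, 95% interval 0.50 to 1.59, limma adjusted p = 0.150) with Nr2f2 removed, a 2.07-fold higher level. The GOF effect minus the KO effect was -1.56 (SE 0.32, 95% interval -2.33 to -0.79), with the lowest p of the 9 genes for that contrast, and did not pass (limma adjusted p = 0.120). Both effects and their difference kept their sign under every alternative tried, with the difference between -1.86 and -1.26 and its adjusted p between 0.0936 and 0.358.

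**Figure D2:**
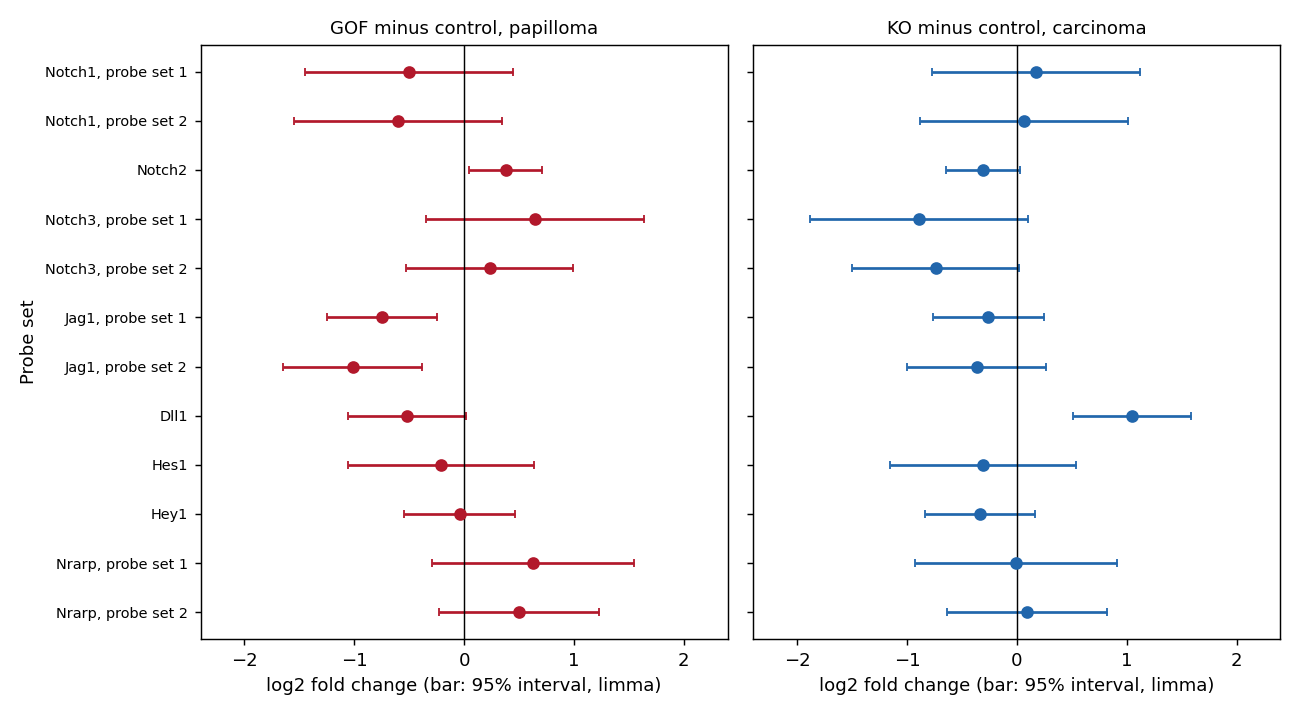
Log2 fold changes of 12 Notch probe sets (Heyl not drawn, as its readings were at or near background) in GOF against control papilloma (left) and KO against control carcinoma (right). Points are limma estimates from 2 arrays per group and bars their 95% intervals. The intervals of the Jag1 probe sets and of Notch2 exclude 0 on the left and that of Dll1 on the right, before adjustment over all probe sets.

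The receptors moved by small steps that did not pass. Notch1, the main Notch receptor of keratinocytes, read 8.55 and 8.42 in GOF papilloma against 9.33 and 8.84 in control papilloma on the probe set that stands for it (1418634_PM_at). Its second probe set (1418633_PM_at) read 5.62 and 5.41 in GOF papilloma against 6.12 and 5.91 in the controls. Both sat below the controls without overlap. The log2 differences were -0.60 (SE 0.40, 95% interval -1.56 to 0.36, limma adjusted p = 0.531) and -0.50 (SE 0.40, limma adjusted p over probe sets = 0.662).

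In carcinoma the Notch1 readings spread more within groups than between them. The first probe set gave 9.99 and 11.01 in the KO against 10.85 and 10.03 in the controls, and the second 7.19 and 8.06 in the KO against 7.99 and 6.92 in the controls. On both probe sets KO replicate 2 and control replicate 1 were the higher arrays. The log2 difference was 0.06 (SE 0.40, 95% interval -0.90 to 1.02, limma adjusted p = 0.980), and it turned to -0.35 without control replicate 2 and to -0.45 without KO replicate 2.

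Notch2, a second receptor of the family (1451889_PM_at), had the tightest readings. They were 7.43 and 7.62 in GOF papilloma against 7.15 and 7.15 in control papilloma. In carcinoma they were 8.82 and 8.65 in the KO against 9.12 and 8.97 in the controls. The groups did not overlap in either tumour type, with the GOF arrays above and the KO arrays below their controls. The log2 differences were 0.38 (SE 0.14, 95% interval 0.04 to 0.72, limma adjusted p = 0.255) and -0.31 (SE 0.14, 95% interval -0.65 to 0.03, limma adjusted p = 0.408). The GOF effect minus the KO effect was 0.69 (SE 0.20, 95% interval 0.21 to 1.17, limma adjusted p = 0.225), and did not pass.

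Notch3, which is known from mural cells of vessels as well as from epithelia, had 2 probe sets that ran alike in carcinoma. On the one that stands for it (1421965_PM_s_at) the KO read 6.43 and 7.18 against 7.50 and 7.60 in the controls, and on the other (1421964_PM_at) 5.70 and 6.69 in the KO against 6.99 and 7.19 in the controls. The KO arrays lay below the controls on both, with log2 differences of -0.74 (SE 0.32, 95% interval -1.51 to 0.03, limma adjusted p = 0.379) and -0.89 (SE 0.42, limma adjusted p over probe sets = 0.437). In papilloma the first probe set read 8.48 and 8.55 in GOF against 8.68 and 7.88 in the controls, and the second 7.41 and 7.42 in GOF against 7.31 and 6.23 in the controls. The groups overlapped on the first probe set and not on the second (0.64, SE 0.42). The difference on the first was 0.23 (SE 0.32, limma adjusted p = 0.809) and became -0.17 without control papilloma replicate 2. The GOF effect minus the KO effect was 0.98 (SE 0.46, 95% interval -0.12 to 2.07, limma adjusted p = 0.409).

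Of the targets, Nrarp, which encodes an ankyrin-repeat protein that dampens Notch signalling, lay higher in GOF papilloma on both probe sets. The one that stands for it (1417986_PM_at) read 8.53 and 8.18 in GOF papilloma against 7.87 and 7.85 in control papilloma. The other (1417985_PM_at) read 7.55 and 7.29 in GOF papilloma against 7.00 and 6.59 in the controls. No GOF reading overlapped the controls. The log2 differences were 0.50 (SE 0.31, 95% interval -0.24 to 1.23, limma adjusted p = 0.490) and 0.62 (SE 0.39, limma adjusted p over probe sets = 0.540), and neither passed. In carcinoma Nrarp read 8.84 and 9.78 in the KO against 9.08 and 9.37 in the controls, so that the KO arrays lay on both sides of the controls. The difference was 0.09 (SE 0.31, 95% interval -0.65 to 0.83, limma adjusted p = 0.957), and it changed sign without control replicate 1 (-0.05) or KO replicate 2 (-0.38).

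Hes1, a transcriptional repressor and the most widely used target of the pathway (1418102_PM_at), overlapped between groups in both tumour types. It read 5.60 and 5.26 in GOF papilloma against 6.03 and 5.25 in control papilloma, and 7.51 and 8.36 in KO carcinoma against 8.41 and 8.09 in control carcinoma. The log2 differences were -0.21 (SE 0.36, 95% interval -1.07 to 0.65, limma adjusted p = 0.853) and -0.31 (SE 0.36, 95% interval -1.17 to 0.54, limma adjusted p = 0.802). Each changed sign when 1 array was left out, to 0.18 without control papilloma replicate 1 and to 0.11 without KO replicate 1. The intervals leave room for differences of more than 2-fold towards lower values.

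Hey1, a repressor related to Hes1 (1415999_PM_at), was just above background in papilloma, with 3.52 and 3.37 in GOF against 3.51 and 3.45 in the controls. Their log2 difference was -0.04 (SE 0.21, limma adjusted p = 0.969), and 0.04 without GOF replicate 2. In carcinoma it read 5.64 and 5.83 in the KO against 5.77 and 6.38 in the controls, a difference of -0.34 (SE 0.21, 95% interval -0.85 to 0.17, limma adjusted p = 0.561) with overlapping groups. It was -0.64 without control replicate 1 and -0.03 without control replicate 2. Its highest reading was on control carcinoma replicate 2. That array also had the highest mean of 12 endothelial markers in carcinoma, 6.69, against 5.64 and 5.76 on the KO arrays and 5.86 on control replicate 1. The part of endothelial RNA in the Hey1 readings was not tested.

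Heyl, the third member of the Hey family, had 3 probe sets, and 1 of them (1419302_PM_at) passed the filter on low values. That one was above background on 1 of 8 arrays (GOF replicate 2, 3.24). In GOF replicate 1 it read 3.16, against 2.98 and 2.93 in control papilloma, all below background (limma adjusted p = 0.629). In carcinoma it read 4.18 and 4.30 in the KO against 4.28 and 4.86 in the controls, all at or below background. The other 2 probe sets were at or below background on all 8 arrays.

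The rest of the pathway was described with 61 further genes in 7 lists, of which 53 had a single-gene probe set and 50 were tested. In GOF papilloma 1 of the 50 fell past the threshold and 0 rose, and in KO carcinoma 0 passed in either direction (1.21% and 0.0143% of all genes). The median log2 fold change of the 50 was -0.15 in papilloma and -0.003 in carcinoma, against 0.02 and 0.01 over all genes. At an unadjusted limma p under 0.05, 6 lay higher and 7 lower in GOF papilloma, and 4 higher and 2 lower in KO carcinoma, where 16.4% and 13.8% of all genes had such a p.

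The gene that fell was Neurl1b, an E3 ubiquitin ligase of the Neuralized family, which promotes the endocytosis of Notch ligands. Its 1 probe set (1435564_PM_at) read 4.22 and 4.84 in GOF papilloma against 6.50 and 6.37 in control papilloma. The groups averaged 4.53 ± 0.44 in GOF and 6.44 ± 0.09 in the controls (SD, n = 2 each). Neurl1b was thus 3.74-fold lower in GOF papilloma (log2 fold change -1.90, SE 0.21, limma adjusted p = 0.0234). It was lower in both GOF arrays than in either control and kept its direction in all 18 alternatives. The call ended without control papilloma replicate 1 (adjusted p = 0.0650), control replicate 2 (0.0948), GOF replicate 1 (0.125) or GOF replicate 2 (0.116). In carcinoma Neurl1b was below background on all 4 arrays.

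The list of ligand endocytosis, receptor turnover and ubiquitination, to which Neurl1b belongs, had mostly lower values in GOF papilloma. Of 11 tested, Neurl1b among them, 10 had negative log2 fold changes, with a median of -0.27, and for 8 the GOF arrays lay below the controls without overlap (21.3% of all genes). Mib2, a second ligase for Notch ligands, read 4.89 and 4.58 in GOF papilloma against 5.70 and 5.32 in the controls (-0.78, SE 0.21, limma adjusted p = 0.135). It is named after its values were seen, as are Numb, Rbpj, Krt1, Krt10 and Dsc1. Numb, which opposes the receptor in asymmetric divisions, read 6.62 and 6.58 in GOF papilloma against 6.95 and 7.36 in the controls, and 8.02 and 8.56 in KO carcinoma against 8.79 and 9.003 in the controls (-0.56 and -0.61). Dtx3, of the Deltex ligase family, was likewise lower in both, with 7.32 and 7.38 in GOF papilloma against 7.86 and 8.33 in the controls (-0.74, SE 0.25, limma adjusted p = 0.208). In carcinoma it read 7.40 and 8.04 in KO carcinoma against 8.53 and 8.60 in the controls (-0.85, SE 0.25, limma adjusted p = 0.226). None of these 3 passed. In KO carcinoma the list had 8 negative values of 11, that of Neurl1b at background among them, and a median of -0.09.

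The receptor-cleaving genes had the opposite balance in papilloma. Of 8 tested, 6 had positive log2 fold changes in GOF papilloma, with a median of 0.29, and 5 had negative ones in KO carcinoma, with a median of -0.25. Aph1c, a gamma-secretase subunit gene, read 5.74 and 5.87 in GOF papilloma against 4.66 and 5.06 in the controls (0.95, SE 0.17, limma adjusted p = 0.0635). Its probe set is of a kind that can match related transcripts, as are that of Mib2 and the one that stands for Notch3. Psenen, the gene of the subunit PEN-2, read 10.49 and 10.58 in KO carcinoma against 10.73 and 11.16 in the controls (-0.41, SE 0.17, limma adjusted p = 0.370). Neither passed.

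Among 6 genes of receptor maturation and glycosylation, Rfng, a fringe that adds sugar to Notch receptors, lay higher in both comparisons. It read 8.38 and 8.27 in GOF papilloma against 7.94 and 7.58 in control papilloma (0.56, SE 0.16, limma adjusted p = 0.155). In carcinoma it read 7.53 and 7.38 in the KO against 6.99 and 7.01 in the controls (0.45, SE 0.16, limma adjusted p = 0.294). A second Rfng probe set gave 0.33 and 0.49. None of these passed.

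In the nuclear complex, 7 of 8 genes had negative values in GOF papilloma and 7 of 8 positive ones in KO carcinoma, with medians of -0.25 and 0.10. Snw1, counted among the 7 in carcinoma, was below background on all 4 arrays there. The smallest p-values were those of the deacetylase gene Hdac1 in papilloma (0.42, SE 0.17, limma adjusted p = 0.284), which also lay higher in KO carcinoma (0.42, limma adjusted p = 0.336), and the corepressor gene Ctbp1 in carcinoma (0.38, SE 0.13, limma adjusted p = 0.279). Rbpj, the DNA-binding partner of Notch, was at -0.55 (SE 0.33) on one probe set and -0.13 on the other in papilloma, and at 0.01 and -0.04 in carcinoma.

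Other Hes factors and ligands were mostly dim. Hes2, Hes3, Hes5 and Hes7 were at or below background on all 4 carcinoma arrays. In papilloma Hes7 read 3.87 and 3.45 in GOF against 3.37 and 3.13 in the controls (0.41, SE 0.18, limma adjusted p = 0.321). Dll3 was below background in GOF papilloma, with 3.18 and 3.06, against 3.36 and 3.69 in the controls, at least 1.23-fold lower (limma adjusted p = 0.291). Notch4, a receptor of endothelium, read 3.58 and 3.67 in GOF papilloma against 3.18 and 3.08 in control papilloma, and was above background in carcinoma on control replicate 2 alone.

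Of 8 further genes reported as Notch targets, all 8 had negative values in GOF papilloma, with a median of -0.38, and 4 in KO carcinoma. One of the 8, Bhlhe41, was below background on all 4 papilloma arrays, so that its sign there carries no information. Myc, the growth-promoting transcription factor gene, read 7.85 and 8.13 in GOF papilloma against 9.06 and 8.53 in the controls (-0.80, SE 0.23, limma adjusted p = 0.155). Gata3, a transcription factor gene of epidermis and hair follicle, read 4.92 and 4.81 in KO carcinoma, both below background, against 6.10 and 4.93 in the controls, the second of which was also below background (-0.65, limma adjusted p = 0.478). The difference rested on control replicate 1, being -0.07 without it and -1.24 without control replicate 2. In GOF papilloma Gata3 read 4.96 and 4.75 against 5.56 and 5.70 in the controls (-0.78, limma adjusted p = 0.334). None of the 8 passed in either comparison.

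Genes of differentiation above the basal layer were followed as a list of 10. They were Krt1, Krt10, Ivl, Dsg1a, Dsc1, Krtdap, Sbsn, Ppl, Evpl and Grhl3, not all of them early genes of the spinous layer. In GOF papilloma 1 of the 10 rose past the threshold, where 1.21% of all genes passed in either direction. It was the desmosomal cadherin gene Dsg1a, with 6.99 and 7.15 in GOF against 5.56 and 6.05 in the controls (1.27, SE 0.19, limma adjusted p = 0.0417). The call ended without any 1 of the papilloma arrays (adjusted p from 0.0597 to 0.243), without either KO array (0.0734), with the papilloma arrays alone (0.0769) and with quantile normalization (0.0675). Of the 10, 7 had positive values, with a median of 0.42. The keratin genes of the spinous layer were on the other side, Krt1 with 10.38 and 10.91 in GOF against 11.28 and 11.24 in the controls, and Krt10 with 10.90 and 11.42 in GOF against 11.65 and 11.51. Dsc1 was negative too (-0.49), with overlapping groups. In KO carcinoma 0 passed (0.0143% of all genes) and the median was -0.18. Grhl3, a transcription factor gene of the epidermal barrier, read 8.83 and 8.18 in the KO against 8.13 and 7.72 in the controls (0.58, SE 0.25, limma adjusted p = 0.367).

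**Figure D3:**
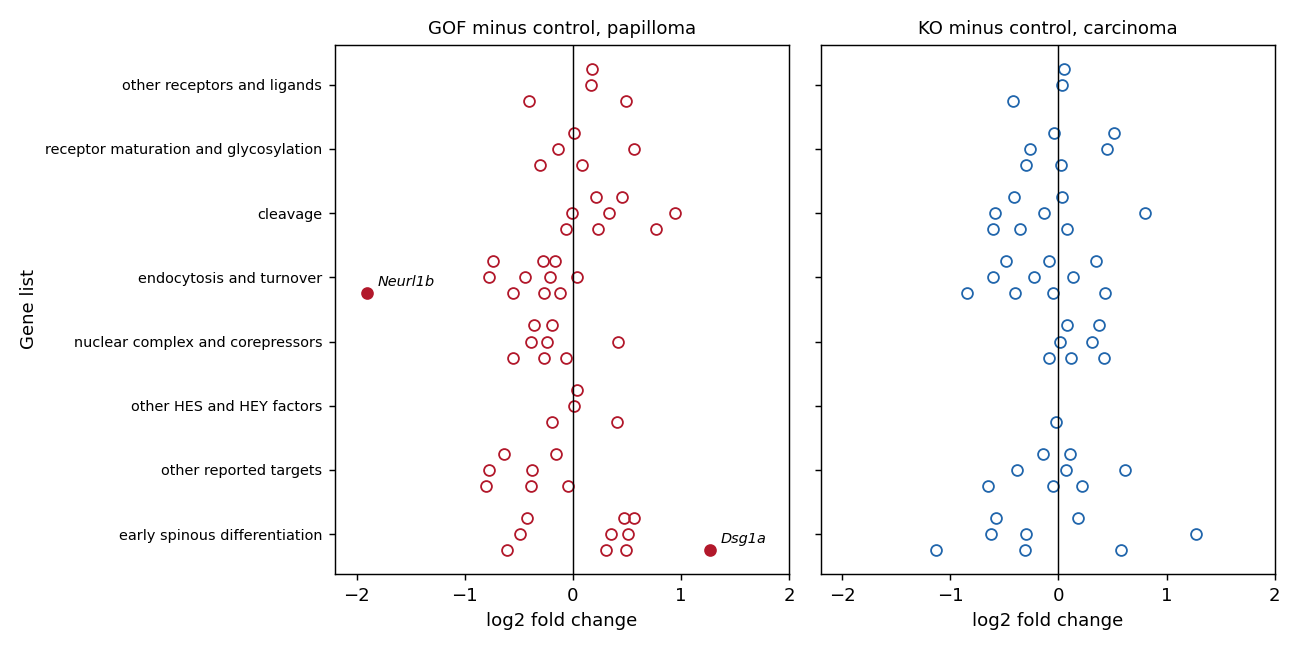
Log2 fold changes of genes of the Notch pathway and of the differentiation list (labelled early spinous differentiation), in GOF against control papilloma (left, 57 genes) and KO against control carcinoma (right, 51 genes). Genes at or below background on all 4 arrays of a tumour type are not drawn (3 and 9 of 60), and filled points passed a limma adjusted p of 0.05. Neurl1b (-1.90) and Dsg1a (1.27) passed on the left and none on the right.

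In papilloma the means of several marker lists of other cells differed between the groups, and Notch genes are also used by several of these cells. Over all genes 1.21% passed in GOF papilloma in either direction, which is the share to read beside each count of markers here and below. In GOF papilloma 5 of 11 endothelial genes tested rose, among them Plvap (2.42), Emcn (3.08), Egfl7 (1.93) and Flt1 (1.03), and none fell. When either GOF array or either control papilloma array was left out 0 of the 11 passed, and likewise without either KO array, while 10 passed without either control carcinoma array. The mean of the 12 endothelial markers was 5.70 and 5.89 on the GOF arrays against 4.20 and 4.07 on the control papilloma arrays, where Tek and Esam were below background. The pericyte and smooth muscle mean, over 7 genes, was 5.16 and 4.86 in GOF papilloma against 3.998 and 3.999 in the controls. Of 6 tested 0 passed, and 5 had positive values and 1 a negative one, with a median of 0.71. The largest was that of the pericyte gene Rgs5, at 8.33 and 7.62 in GOF against 3.23 and 3.52 in the controls (4.60, limma adjusted p = 0.0635). Kcnj8, Des and Higd1b were below background on both GOF arrays. The macrophage mean, over 10 genes, was 5.505 and 6.49 in GOF papilloma against 3.26 and 3.20 in the controls, and 2 of 10 rose, Lyz2 (at least 33.6-fold, being below background in the controls) and C1qc (3.96), with 0 without either GOF array or control papilloma replicate 2, 1 without control papilloma replicate 1 or either KO array, and 6 without either control carcinoma array. The Langerhans and dendritic mean, over 6 genes, was 6.72 and 7.34 in GOF papilloma against 4.74 and 5.01 in the controls, and 3 of 5 tested rose, the class II genes H2-Ab1 (3.23), H2-Eb1 (3.27) and H2-Aa (2.08), with 0 without any 1 of the papilloma arrays and 1 without either KO array. The fibroblast mean, over 8 genes, was 7.61 and 7.93 in GOF papilloma against 7.44 and 6.27 in the controls, and 0 of 6 passed, with Dpt at 1.88.

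Most basal keratinocyte markers, though not Krt5 and Krt14, moved the other way in the same arrays. The mean over the 9 genes of this list was 9.04 and 8.88 in GOF papilloma against 9.98 and 9.84 in control papilloma. Of the 9, 4 fell past the threshold, Krt15 (-2.47), Dst (-1.67), Col17a1 (-1.54) and Lamb3 (-1.34), where 1.21% of all genes passed in either direction. The count was 0 without GOF replicate 1, GOF replicate 2 or control papilloma replicate 2, and 1 without control papilloma replicate 1 or either KO array. Over the list 7 genes had negative and 2 positive values, the highest 0.03. Krt5 read 12.47 and 12.37 in GOF papilloma against 12.35 and 12.42 in the controls. Krt14 read 12.13 and 12.02 in GOF papilloma against 12.09 and 12.025 in the controls. The mean of the list, but not these keratin genes, had the same direction as Jag1, Dll1 and Notch1 in papilloma, and as Hes1 (-0.21) and Hey1 (-0.04). The other direction was that of Notch2 (0.38), Notch3 (0.23) and Nrarp (0.50), and of Heyl (0.25) near background. Of 7 epithelial genes Krt8 rose (5.32) and Epcam fell, with neither past the threshold when any 1 of the papilloma arrays was left out, nor Epcam without either KO array. In sorted bulk cells, fewer cells of a type and less RNA per cell cannot be told apart, and the part of these shifts in the Notch readings was not tested.

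In carcinoma the stromal lists were highest on control replicate 2. The means on the KO arrays, then on control replicates 1 and 2, were 4.79 and 5.33 against 5.25 and 6.49 for pericyte and smooth muscle genes. They were 5.41 and 6.01 against 5.89 and 7.34 for fibroblast genes, and 5.28 and 5.58 against 5.43 and 6.98 for macrophage genes. The Langerhans and dendritic means were 6.24 and 6.13 in the KO against 6.18 and 7.06 in the controls. The basal keratinocyte mean was 10.90 and 11.18 in the KO against 11.21 and 11.08 in the controls. No marker gene passed in carcinoma, where 0.0143% of all genes did. The smallest p in its list was that of Flt1 (-1.11, limma adjusted p = 0.110) for endothelium, Acta2 (-1.71, 0.236) for smooth muscle, Dcn (-1.43, 0.438) for fibroblasts and Lyz2 (-1.62, 0.225) for macrophages. For the Langerhans and dendritic list it was that of H2-Ab1 (-1.07, 0.421) and for basal keratinocytes that of Lamb3 (-0.34, 0.561). Among epithelial genes it was that of the claudin gene Cldn7, with 8.17 and 5.73 in the KO against 8.89 and 8.74 in the controls (-1.86, SE 0.69, limma adjusted p = 0.311). All 11 endothelial, 6 pericyte and smooth muscle, 6 fibroblast and 10 macrophage genes tested had negative values in the KO, where Kdr, Tek, Emcn, Plvap and Esam were below background. Notch3 had the same direction in the KO, and its difference was -0.79 without control replicate 1 and -0.69 without control replicate 2, but -0.37 without KO replicate 1 and -1.11 without KO replicate 2. Dll1, higher in the KO, was at 1.18 without control replicate 1, 0.92 without control replicate 2, 0.75 without KO replicate 1 and 1.35 without KO replicate 2. The T cell mean, over 5 genes, was 2.98 and 2.97 in GOF against 2.80 and 2.82 in control papilloma, and 4.21 and 4.53 in KO against 4.40 and 5.11 in control carcinoma. The melanocyte mean, over 5 genes, was 2.88 and 2.88 in GOF against 3.11 and 3.09 in control papilloma, and 4.47 and 4.68 in KO against 4.66 and 4.62 in control carcinoma. Most genes of both lists were at or below background on both arrays of a group. For T cell genes these were 5 of 5 in control papilloma, 4 in GOF papilloma, 3 in control carcinoma and 5 in KO carcinoma. For melanocyte genes they were 2 of 5 in control papilloma, 4 in GOF papilloma, 4 in control carcinoma and 3 in KO carcinoma. No gene of either list passed. The smallest p among T cell genes was that of Ptprc in papilloma, with 3.37 and 3.88 in GOF against 3.07 and 2.74, both below background, in the controls (limma adjusted p = 0.755). In carcinoma it was that of Cd3d, with 4.76 and 4.68 in the KO, both below background, against 4.94 and 5.08 in the controls (limma adjusted p = 0.375). Among melanocyte genes it was that of Pmel, at -0.28 in papilloma (limma adjusted p = 0.606) and -0.28 in carcinoma (limma adjusted p = 0.663).

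**Figure D4:**
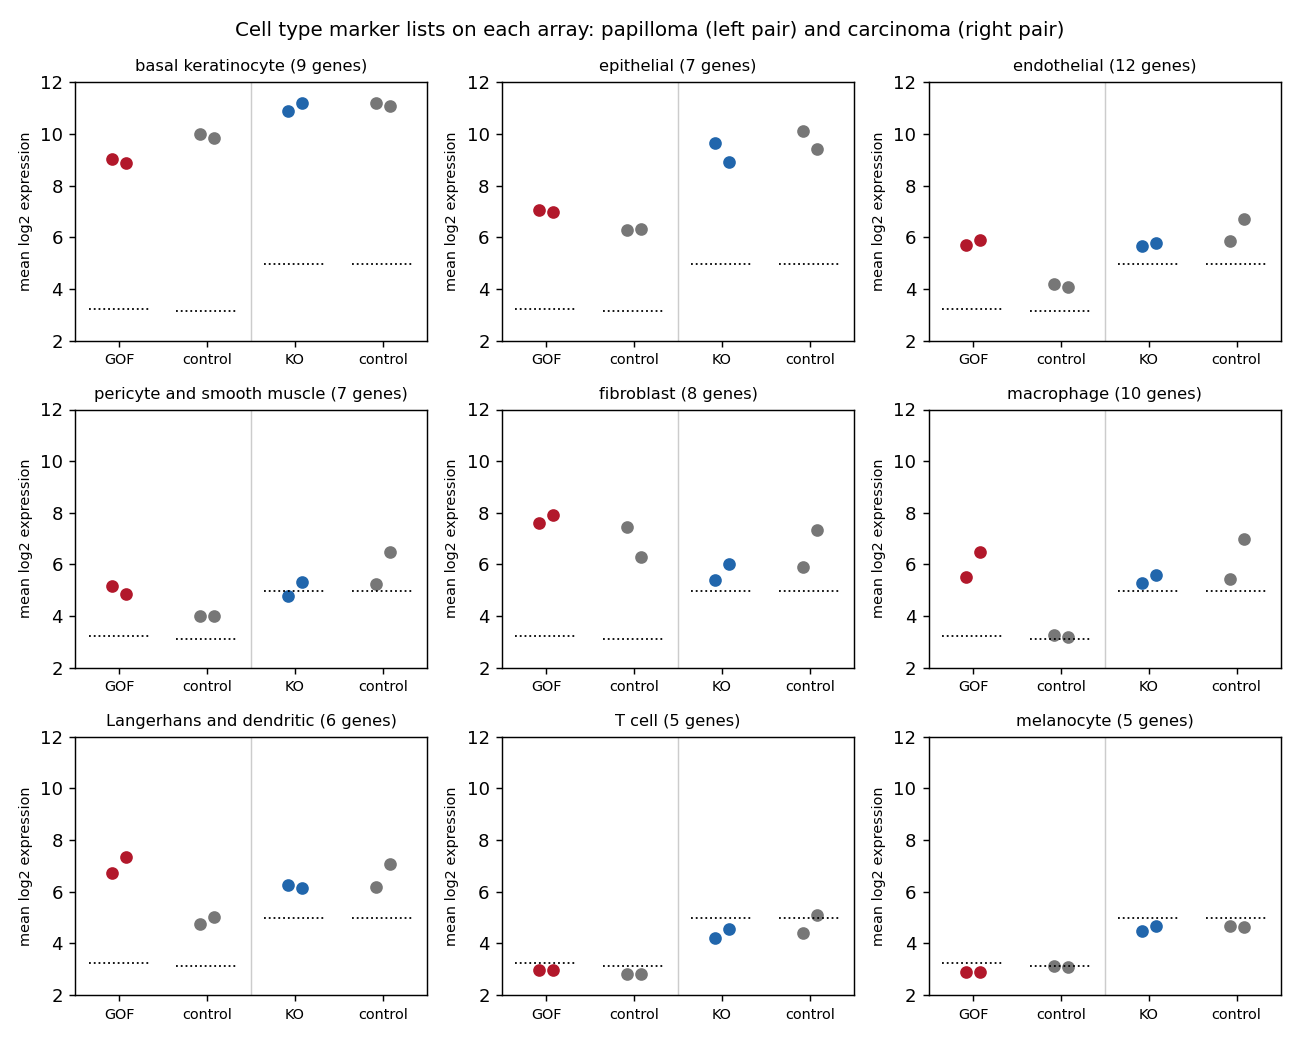
Mean log2 expression of 9 cell type marker lists on each of the 8 arrays (1 point per array; GOF red, KO blue, controls grey; dotted lines, mean background of a group). Endothelial, macrophage and dendritic means lie higher and the basal keratinocyte mean lower in GOF than in control papilloma, and control carcinoma replicate 2 has the highest endothelial, pericyte, fibroblast and macrophage means in carcinoma.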

How the data were processed

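RNA from sorted Epcam-positive mouse tumour cells was hybridised to 8 Affymetrix arrays, 2 in each of 4 groups. The authors deposited log2 expression values normalized with RMA, per the labels' protocols; the submitters' processing notes name RMA and affy, with versions not given in the sources used here. The papilloma and carcinoma arrays lie on different scales, so contrasts were taken within a tumour type. Effects were compared across tumour types only as a difference between contrasts. The filter, the choice of the probe set that stands for a gene and the fit used all 8 arrays together. The errors, intervals and p-values of each comparison therefore also rest on the spread between arrays of the other tumour type. The number of arrays limits the precision: an exact permutation test of 2 against 2 cannot go below p = 0.333.

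Control probe sets (104) were left out. Of 28898 probe sets annotated to 1 gene, 28689 matched RefSeq genes of GRCm38.p6 by Entrez identifier. A probe set was kept where at least 2 of 8 arrays exceeded 4.229, the median of all values, and the brightest stood for its gene. This cut lies below the background of the carcinoma arrays. Some genes tested, such as Hes2, were therefore at or below background on every array. A filter at background within each tumour type left 11986 genes. limma 3.58.1 (lmFit and eBayes, R 4.3.3) was fitted to 13939 genes with 1 mean per group over all 8 arrays (4 residual and 2.67 prior degrees of freedom). P-values were two-sided and Benjamini-Hochberg adjusted over all genes tested, and a second fit covered 32394 probe sets. The procedure was tested on simulated data with planted differences larger than any estimated for a Notch gene. Differences as small as theirs were not simulated.

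The Notch genes and the lists were chosen with earlier results of these data known. All Notch probe sets are reported. Of each other list the text names the genes past the threshold and the gene with the smallest p in each comparison, with at most 4 past the threshold for a marker list. For the 3 Notch genes with the smallest p it names the 3 most correlated genes. Mib2, Numb, Rbpj, Krt1, Krt10 and Dsc1 are marked as chosen after their values were seen. The differentiation genes are also named in full as a list. Nr2f2 is named as the targeted gene. Xist, Eif2s3y, Krt5, Krt14 and the genes named only for lying at or below background also fall outside this rule and carry no such mark. Alternatives were leaving out each array, a replicate block, each tumour type alone, quantile normalization, median centring, 3 other filters, the mean of the probe sets of a gene, leaving out probe sets that match several transcripts, and a trended robust prior.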

Additional observations from a re-analysis of the deposited data

How the results depend on the processing

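The number of Notch genes past the threshold was 0 in both comparisons under every alternative, and 0 Notch probe sets passed under the alternatives that were run on probe sets. For single genes, 628 of the alternative values kept direction and side of the threshold, 21 kept direction and lost the call, and 10 reversed, all 10 when 1 array was left out and none past the threshold. Over the fits that left out 1 array, the GOF difference ran from -0.60 (without control papilloma replicate 2) to 0.18 (without replicate 1) for Hes1, from -0.17 to 0.63 for Notch3 and from -0.12 to 0.0397 for Hey1. The KO difference ran from -0.64 to -0.03 for Hey1, from -1.11 to -0.37 for Notch3, from 0.75 to 1.35 for Dll1, from -0.45 to 0.57 for Notch1 (-0.35 without control carcinoma replicate 2), from -0.55 to 0.0275 for Jag1, from -0.74 to 0.11 for Hes1, from -0.38 to 0.56 for Nrarp (-0.05 without control carcinoma replicate 1) and from -0.90 to 0.0554 for Notch4. The cause was not tested. Counts over all genes moved more. The 169 genes of the GOF comparison became 105 with quantile normalization and 1 to 297 with 1 array left out. The 2 genes of the KO comparison became 0 with the mean of the probe sets, 0 with the carcinoma arrays alone, 32 with a trended robust prior and 0 to 122 with 1 array left out. The 11 genes of the difference between the effects became 6 with the mean of the probe sets, 18 without probe sets that match several transcripts, 39 with a filter at background within each tumour type, 68 with the trended prior and 1 to 274 with 1 array left out. With the replicate number as a block the counts were 3, 0 and 3, and the adjusted p was 0.0741 for Neurl1b, 0.0764 for Dsg1a and 0.132 for Nr2f2 in the KO comparison. Same-numbered arrays deviated together with a correlation over genes of 0.00179 in papilloma and 0.125 in carcinoma, so the numbers were not taken to pair them. Signal limits Heyl in both tumour types and Hey1 in papilloma, which lay at or near background.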

Other observations

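The genes whose pattern was most like that of a Notch gene were found by Pearson's correlation over the 8 arrays after the mean of each tumour type was subtracted, which describes these arrays only, since all genes share them. Dll1 was most like the small nucleolar RNA host gene Zfas1 (0.979), Gm4047 (0.977) and the ribosomal protein gene Rpl27 (0.970). For Jag1 they were the actin-binding protein gene Lima1 (0.993), Cttnbp2nl (0.971) and Slc25a34 (0.967). For Notch2 they were Akap2 (0.987), the metalloprotease gene Adam9 (0.981) and Osbpl9 (0.976).

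The arrays also split by Xist and Eif2s3y within groups. In carcinoma Xist read 4.25 and 8.67 in KO replicates 1 and 2, against 8.78 and 6.51 in control replicates 1 and 2. Notch1 was higher on the array with more Xist in both groups, with 9.99 and 11.01 in the KO against 10.85 and 10.03 in the controls. In papilloma Xist read 3.39 and 7.72 in GOF against 8.52 and 3.11 in the controls, while Notch1 read 8.55 and 8.42 in GOF against 9.33 and 8.84 in the controls. There the array with more Xist was the higher one for Notch1 in the controls and the lower one in GOF. The part of the sex of the mice in the Notch1 readings was not tested.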
